A study of Mus musculus with 26 samples.

Results

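The miR-17-92 and miR-106b-25 clusters are a pair of related groups of miRNA hairpins, each cut from 1 longer transcript. Their 10 mature miRNAs described here were taken by name from the 1915 entries of the authors' count table. They are mmu-miR-17-5p, mmu-miR-18a-5p, mmu-miR-19a-3p, mmu-miR-20a-5p, mmu-miR-19b-3p and mmu-miR-92a-3p of miR-17-92, and mmu-miR-106b-5p, mmu-miR-106b-3p, mmu-miR-93-5p and mmu-miR-25-3p of miR-106b-25, written below without the species prefix. They are the guide strands of the hairpins, plus the other strand of miR-106b. Of the 10, 9 passed the filter on low counts and were tested among 605 miRNAs. miR-18a-5p, with 67 reads in all libraries together, did not pass.

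The data are counts of small RNA from mouse hippocampal area CA1, in 26 libraries of 3 groups. The groups were 10 libraries of CamkdeltaC transgenic mice given Vorinostat (SAHA), 7 of transgenic mice given vehicle and 9 of wild type littermates given vehicle, all through the drinking water for 4 weeks from an age of 2 months, which makes the mice 3 months old at the end. Vorinostat is an inhibitor of histone deacetylases. Per the labels, both sexes were used and dissected tissue was frozen before extraction of RNA. The labels give neither the promoter that drives the transgene nor whether every library comes from its own animal, so p-values reflect only how libraries of a group spread. The published line of this name uses a heart muscle promoter, and small RNA counts do not measure the transgene's own mRNA. A library is bulk tissue, so a change in the number of cells that hold a miRNA and a change in its amount per cell cannot be told apart.

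miR-17-92 is transcribed as a non-coding host transcript, Mir17hg, which Myc and E2F factors are known to activate, and it favours cell proliferation and survival. miR-106b-25 lies within the gene Mcm7, which encodes a subunit of the helicase that opens DNA for replication. In the brain both clusters are known mainly from neural progenitors and adult neurogenesis. A miRNA finds its targets largely through its seed, bases 2 to 8, and these clusters share seeds with each other. Known targets include Cdkn1a, an inhibitor of the cell cycle, for the miR-17 seed and Bcl2l11 (Bim), which promotes cell death, for the miR-92 and miR-17 seeds. miR-92a is also known from endothelial cells, where it restrains the growth of vessels.

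The mature sequences below, from RefSeq on GRCm38.p6, matched all 10 members and show which of them could act on the same targets. They are written 5′ to 3′ with the seed in capitals. The members hold 5 different seeds. The first 4 sequences share the seed of the miR-17 family across both clusters, and miR-18a-5p, the fifth, has a seed of its own. The pair that follows is the miR-19 family, then comes the pair of the miR-92 family, which again has 1 member in each cluster, and miR-106b-3p stands alone.
miR-17-5p: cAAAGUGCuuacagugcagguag
miR-20a-5p: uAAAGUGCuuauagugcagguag
miR-93-5p: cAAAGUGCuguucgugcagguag
miR-106b-5p: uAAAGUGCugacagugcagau
miR-18a-5p: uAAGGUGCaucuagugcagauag
miR-19a-3p: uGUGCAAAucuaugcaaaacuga
miR-19b-3p: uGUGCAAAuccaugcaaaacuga
miR-92a-3p: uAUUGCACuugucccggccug
miR-25-3p: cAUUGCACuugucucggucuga
miR-106b-3p: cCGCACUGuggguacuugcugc

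miR-17-5p and miR-20a-5p differ at 2 positions outside the seed, C1U and C12U, and miR-19a-3p and miR-19b-3p at 1, U11C, counted from 1 at the 5′ end with the first-named miRNA's base first. Reads of such near relatives can be assigned to the wrong relative, and how the authors counted them is not stated in the sources. No member had the same counts as another entry of the table in all libraries.

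All 6 hairpins of miR-17-92 lie in exon 2 of Mir17hg on the plus strand of chromosome 14 (GRCm38), the gene spanning chr14:115042879-115046727. miR-17-5p itself is at chr14:115043684-115043706 and miR-92a-3p, the last in order, at chr14:115044476-115044496. The 3 hairpins of miR-106b-25 lie in an intron of transcript Mcm7-201 on the minus strand of chromosome 5, Mcm7 spanning chr5:138164583-138172422. miR-106b-5p is at chr5:138165787-138165807 and miR-106b-3p, cut from the other arm of the same hairpin, at chr5:138165746-138165767. miR-93-5p follows at chr5:138165574-138165596 and miR-25-3p at chr5:138165332-138165353. miR-19b-3p and miR-92a-3p have a second copy each in the miR-106a-363 cluster of chromosome X, at chrX:52741991-52742013 and chrX:52741854-52741874, with the same mature sequence. Reads of these miRNAs cannot be assigned to a copy. The strands that only the chromosome X cluster makes were rare: of its 10 strands, 4 had any read and 0 passed the filter, with 43 reads of miR-106a-5p, 56 of miR-20b-5p, 128 of miR-363-3p and 18 of miR-363-5p in all libraries.

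The 10 members together took 0.0633 ± 0.0101% of a library's counts (SD, n = 26). Libraries held 3892718 to 15693842 counts in transgenic Vorinostat, 6014711 to 24767468 in transgenic vehicle and 585188 to 17628404 in wild type vehicle. The 3 neuronal marker miRNAs listed (miR-124-3p, miR-128-3p and miR-9-5p) summed to between 195976 and 468077 CPM in all libraries, where CPM is a miRNA's count relative to the library's total count, the totals being scaled by trimmed-mean factors. The library with the fewest counts, wild type vehicle replicate 1, and transgenic Vorinostat replicate 8 stood apart from the others on the first principal component of the counts, at -65.2 and -25.8. The libraries were sequenced on a pair of lanes, read from the column names. Lane L002 held 6 of 10 Vorinostat, 4 of 7 transgenic vehicle and 3 of 9 wild type libraries, and all libraries numbered 7 to 10 were on it. Numbers 1 to 4 were on lane L001, and numbers 5 and 6 occurred on both lanes, with 3 libraries each.

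Levels differed far more between members of 1 transcript than between groups. In miR-17-92, miR-92a-3p averaged 219 ± 101 CPM over all 26 libraries and was 72.9 to 100% of the cluster's counts in a library. The 100% was in wild type replicate 1, where no other member of the cluster had a read. Next in level were miR-20a-5p (12.9 ± 8.22 CPM), miR-19b-3p (11.6 ± 5.89 CPM) and miR-17-5p (8.46 ± 4.15 CPM), and neighbours in this order differed by less than their SDs. miR-19a-3p, which has the seed of miR-19b-3p, averaged only 1.05 ± 0.697 CPM. miR-18a-5p averaged 0.199 ± 0.221 CPM and had no read in 9 of the 26 libraries. In miR-106b-25, miR-25-3p was highest at 228 ± 38.6 CPM and also the steadiest, followed by miR-106b-3p (102 ± 62.7 CPM), miR-93-5p (45.0 ± 18.1 CPM) and miR-106b-5p (9.38 ± 4.90 CPM). The miR-92 family member of each cluster therefore had the most reads among the cluster's members, with reads of miR-92a-3p shared with its copy on chromosome X. These members' levels, for miR-25-3p and miR-92a-3p, did not differ beyond their spread. miR-92b-3p, which has the same seed and lies in neither cluster, averaged 600 ± 173 CPM. Ligation bias is known to make levels of different miRNAs in small RNA libraries hard to compare, and no value here corrects for it.

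**Figure D1:**
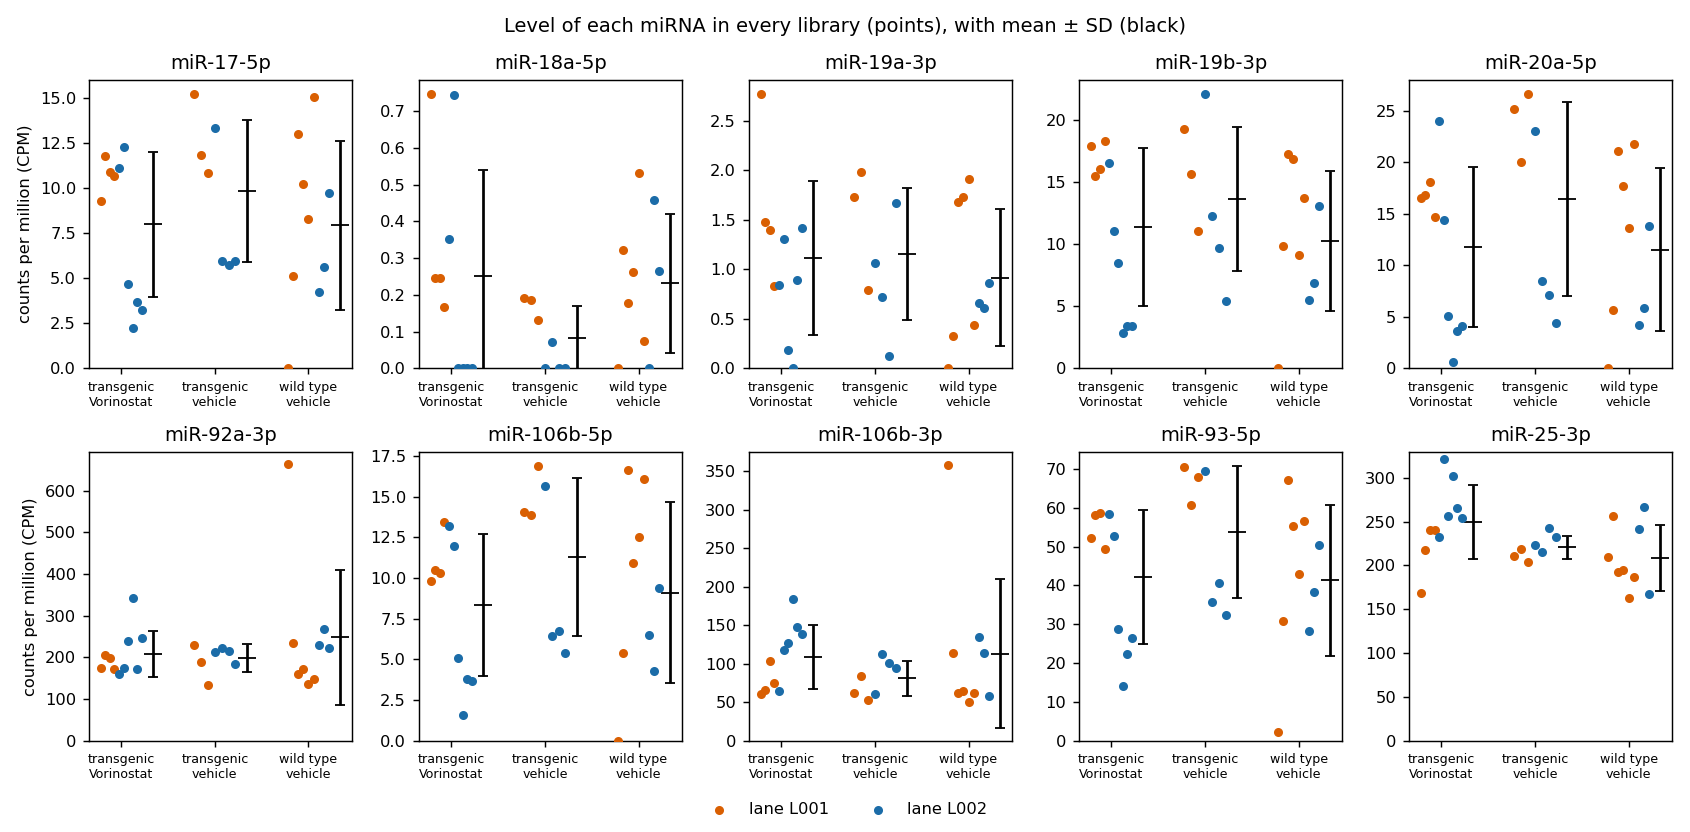
Level in CPM (y axis, linear) of each of the 10 miRNAs in every library, by group and coloured by sequencing lane. Points within a group run from the lowest replicate number to the highest, and the black bar gives the mean ± SD. In 5 of the panels (miR-17-5p, miR-19b-3p, miR-20a-5p, miR-106b-5p and miR-93-5p) most libraries numbered 7 to 10 sit low in their group, while miR-106b-3p shows the opposite.

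Reads of miR-106b in CA1 were mostly of its 3p strand, although the 5p strand carries the seed of the miR-17 family and is usually listed as the guide. Ligation bias applies to the strands of a hairpin as well, so shares of reads need not be shares of molecules. Over all libraries there were 26785 reads of miR-106b-3p and 3209 of miR-106b-5p, so the 5p strand was 10.7% of the hairpin's reads. Among the other hairpins, the strand not listed as a member was rare for miR-92a-1 (0.0703%), miR-19b-1 (0.37%), miR-20a (0.563%), miR-25 (0.792%) and miR-93 (1.96%). It reached 6.94% for miR-17. For miR-18a the 3p strand, with 91 reads, was counted more often than the 5p strand, with 67. For miR-19a the 5p strand had 0 reads beside 371 of the 3p strand, which allows it a share of up to 0.809%. The ratio of miR-106b-3p to miR-106b-5p reads was not stable between libraries. It ranged from 3.16 in transgenic vehicle replicate 5 to 115 in Vorinostat replicate 8, where it rests on 577 and 5 reads, and wild type replicate 1 had 172 reads of the 3p strand and 0 of the 5p strand, a ratio of at least 57.3 when the 0 is set at 3 counts. In 14 of the 16 libraries numbered 1 to 6 the ratio was 3.16 to 10.1. In 9 of the 10 numbered 7 to 10 it was 14.9 to 115. The exceptions were wild type replicates 1, 2 and 9.

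The members did not vary as their genes are arranged. Over the 26 libraries, levels of miR-17-5p, miR-20a-5p, miR-19b-3p and miR-19a-3p of miR-17-92 went up and down with those of miR-93-5p and miR-106b-5p of miR-106b-25. Spearman's rho was 0.97 between miR-20a-5p and miR-93-5p and 0.94 between miR-17-5p and miR-93-5p, each pair with its genes on different chromosomes. miR-92a-3p, from the same transcript as miR-17-5p and miR-20a-5p, went the opposite way, with rho of -0.57 and -0.60. Without the 2 libraries that stood apart these values were weaker, at -0.45 and -0.49. Both strands of the miR-106b hairpin went opposite ways as well (rho -0.80, and -0.74 over the 24 libraries other than the 2 that stood apart). miR-106b-3p instead went with miR-25-3p (rho 0.76) and miR-92a-3p (rho 0.63). These correlations are descriptions: all levels in a library share its depth and scaling, and no p-value is given.

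**Figure D2:**
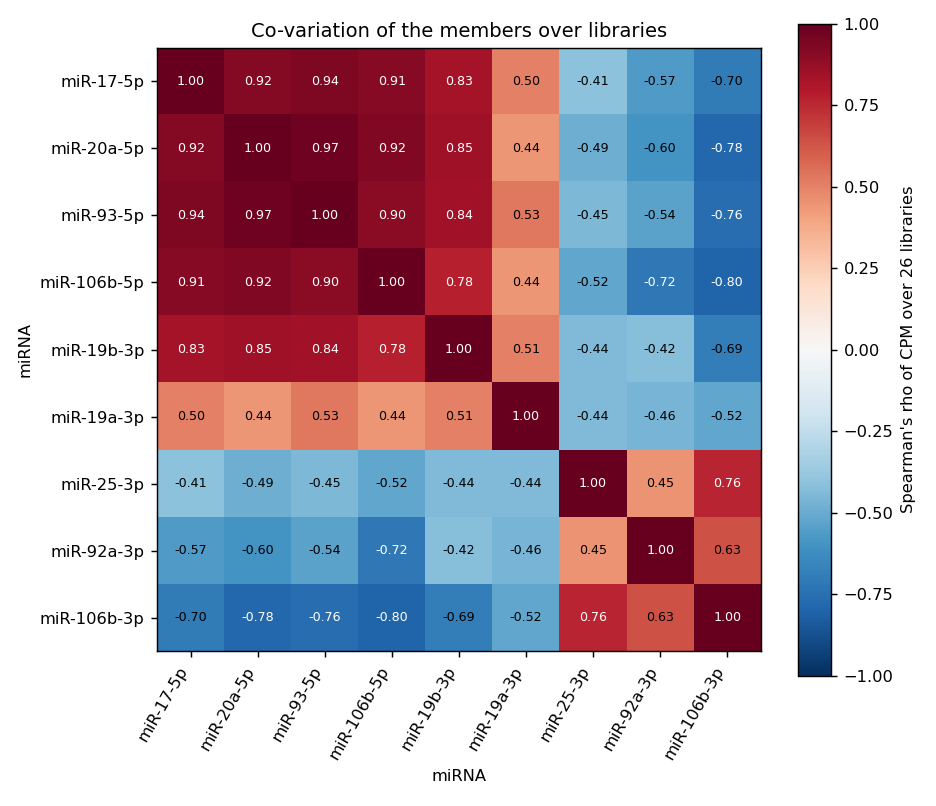
Spearman's rho between the CPM of each pair of tested members over 26 libraries, on a scale from -1 (blue) to 1 (red). The upper left block of 6 miRNAs, from both clusters, is positive throughout, and all its values with miR-25-3p, miR-92a-3p and miR-106b-3p are negative.

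The same contrast was seen in a part of the table. Of the other 604 tested miRNAs, 82 (13.6%) had rho of at least 0.8 with miR-93-5p over 26 libraries and 48 (7.95%) had rho of -0.8 or below. Without the 2 libraries that stood apart, 51 and 33 did. Over 26 libraries, the median GC content of the mature sequence was 42.9% among those with high rho and 57.1% among those with low rho. It was 50.0% over the 514 miRNAs with a RefSeq sequence. Among the members, miR-19a-3p (34.8%), miR-20a-5p and miR-19b-3p (39.1% each) and miR-106b-5p (42.9%) were low in GC, and miR-92a-3p (57.1%) and miR-106b-3p (63.6%) were high. GC content did not sort the members fully, since miR-93-5p (52.2%) had more than miR-25-3p (50.0%). The part of GC content in the pattern was not tested. The authors' deposited table of co-expression modules holds the same division: it puts the first 6 miRNAs in the turquoise module of 404, miR-92a-3p and miR-106b-3p in the blue module of 197, and miR-25-3p in the yellow module of 25, with miR-18a-5p not among its 674 miRNAs. That table was built on these libraries.

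The summed level of a cluster hid this, since miR-92a-3p and miR-25-3p outweigh the rest. The miR-17-92 sum was 241 ± 44.9 CPM in transgenic Vorinostat, 239 ± 37.2 CPM in transgenic vehicle and 279 ± 149 CPM in wild type vehicle. The miR-106b-25 sum was 409 ± 65.3, 367 ± 15.5 and 372 ± 92.5 CPM in those groups (SD, n = 10, 7 and 9). Among 333 abundant miRNAs outside the clusters, the pattern over 26 libraries was most like the miR-106b-25 sum for miR-100-5p (rho 0.90), miR-134-5p (0.90) and let-7i-5p (0.87). For the miR-17-92 sum the nearest were miR-383-5p (rho 0.70) and miR-140-3p (0.63).

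Between sequencing lanes the members differed in the same 2 directions. In a fit with group and lane, libraries of lane L002 over those of lane L001 had log2 differences of -0.96 ± 0.37 (SE) for miR-20a-5p, -0.75 ± 0.29 for miR-106b-5p and 0.39 ± 0.28 for miR-106b-3p. None of the 9 members passed the edgeR test there, where 0.165% of all miRNAs did. Without the 2 libraries that stood apart, 13.7% of all miRNAs passed. miR-106b-5p (log2 difference -0.71, adjusted p = 0.0475 by edgeR) and miR-106b-3p (0.56, adjusted p = 0.0265 by edgeR) were among them. The 3 libraries of lane L002 numbered 5 or 6 (Vorinostat replicates 5 and 6 and transgenic vehicle replicate 6) had 14.4 to 23.97 CPM of miR-20a-5p and strand ratios of 3.85 to 9.87. The 3 of lane L001 with these numbers had 13.6 to 26.6 CPM and ratios of 3.16 to 4.00, while the 10 libraries of lane L002 numbered 7 to 10 had 0.636 to 13.8 CPM and ratios of 6.11 to 115. In miR-20a-5p the libraries of lane L002 numbered 5 or 6 thus lay just above the rest of their own lane, at 14.4 against 13.8 CPM where nearest. Their strand ratios overlapped both other sets. These are few libraries of differing groups, so lane and number cannot be told apart here. Within single lanes no member passed in any group comparison by edgeR. For Vorinostat over transgenic vehicle, miR-106b-3p had a log2 difference of 0.19 within lane L001 and 0.48 within lane L002, and miR-20a-5p had -0.53 and -0.27. For transgenic vehicle over wild type, miR-106b-3p had -0.71 and -0.16, and miR-20a-5p had 0.71 and 0.39. Without wild type replicate 1, the difference of miR-106b-3p within lane L001 was -0.095 and that of miR-20a-5p 0.57.

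The comparison of transgenic vehicle with wild type vehicle asks what the transgene changes in CA1. No member passed the test. miR-20a-5p had 4.41, 20.0004 and 26.6 CPM as its lowest, median and highest value in transgenic vehicle libraries, and 0, 13.6 and 21.7 CPM in wild type vehicle libraries. miR-93-5p had 32.3, 60.9 and 70.5 CPM in transgenic vehicle, against 2.08, 42.9 and 67.1 CPM in wild type. miR-106b-3p had 53.3, 84.0 and 113 CPM in transgenic vehicle, against 50.2, 64.9 and 358 CPM in wild type, so its median was higher and its mean lower in transgenic vehicle. The groups overlapped for every member, and the lowest value of miR-20a-5p and of miR-93-5p and the highest of miR-106b-3p all belonged to wild type replicate 1. By edgeR's quasi-likelihood test over 605 miRNAs, 0% of all miRNAs and 0 of the 9 members passed at an adjusted p under 0.05. At an unadjusted p under 0.05 there were 13 miRNAs by edgeR, and DESeq2 and limma voom also called 0, with 18 and 7 at the unadjusted level. Among the members 7 were higher and 2 lower in transgenic vehicle, with a median log2 difference of 0.23 beside 0.03 over all miRNAs. The estimates ran from -0.44 ± 0.35 (SE; 95% interval -1.15 to 0.26) for miR-106b-3p to 0.43 ± 0.51 (-0.62 to 1.49) for miR-20a-5p. Without wild type replicate 1, the difference of miR-106b-3p was -0.03 and that of miR-92a-3p -0.01, against -0.31 with it.

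The comparison of Vorinostat with vehicle in transgenic mice asks what the histone deacetylase inhibitor changes in CA1. Treating all libraries as separate, 0 of the 9 members and 0% of all miRNAs passed by edgeR. At an unadjusted p under 0.05 there were 21 miRNAs, and DESeq2 and limma voom called 0, with 26 and 16. Here 3 members were higher and 6 lower with Vorinostat, with a median log2 difference of -0.25 beside -0.01 over all miRNAs. The estimates ran from -0.46 ± 0.50 (-1.48 to 0.56) for miR-20a-5p to 0.42 ± 0.34 (-0.27 to 1.11) for miR-106b-3p. An inhibitor of histone deacetylases is known to lower miR-17-92 in human colon cancer cells. Here miR-92a-3p, which holds most of that cluster's counts, had a log2 difference of 0.07 ± 0.25 (SE; -0.44 to 0.58). Its reads cannot be told apart from those of its copy on chromosome X. The lower members came from both clusters. Whether Vorinostat changes the transcription of miR-17-92 in CA1 was not tested. This comparison shares its vehicle libraries with the transgene comparison, so a member that is high in them tends to show opposite signs in the 2.

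The replicate numbers mattered for this comparison. Vorinostat and vehicle libraries of transgenic mice with the same number deviated together from their group means in all 7 pairs (correlation over miRNAs 0.27 to 0.60). Libraries of different numbers were not compared in this way, so these values do not show that the number itself pairs libraries. In both transgenic groups the libraries numbered 7 to 10 lay below the rest on the first principal component. Of the pairs with wild type libraries, 4 of 6 with transgenic vehicle and 6 of 9 with Vorinostat had a correlation over 0.1, with medians of 0.34 and 0.29. Within the 7 pairs, 3 members of the miR-17 family were lower and the 3p strand of miR-106b was higher with Vorinostat in every pair. miR-106b-3p had 65.4, 104, 64.0, 118, 183, 147 and 139 CPM in Vorinostat replicates 2, 3, 5, 6, 8, 9 and 10, against 62.1, 84.0, 53.3, 60.2, 113, 101 and 93.8 CPM in the vehicle replicates of those numbers. miR-106b-5p, in the same order, had 10.5, 10.3, 13.2, 11.9, 1.59, 3.75 and 3.68 CPM in Vorinostat, against 14.05, 13.8, 16.9, 15.6, 6.45, 6.76 and 5.39 CPM in vehicle. So the 3p strand was higher and the 5p strand lower with Vorinostat in 7 of 7 pairs each, although levels varied by several fold between pairs. miR-93-5p and miR-20a-5p were lower in 7 of 7 pairs as well, miR-25-3p was higher in 7 of 7, miR-17-5p was higher in 1, miR-19b-3p in 2, miR-19a-3p in 3 and miR-92a-3p in 4. All pairs in 1 direction were thus seen for 5 of the 9 members, and for 12.4% of all miRNAs. The first principal component of the counts, signed to rise with miR-93-5p, was also lower with Vorinostat in all 7 pairs. It was 8.16 against 8.71 in pair 3 and -25.8 against -2.24 in pair 8. The members vary together over libraries, so the 5 are not separate results. Whether they differ beyond this library-wide contrast was not tested.

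**Figure D3:**
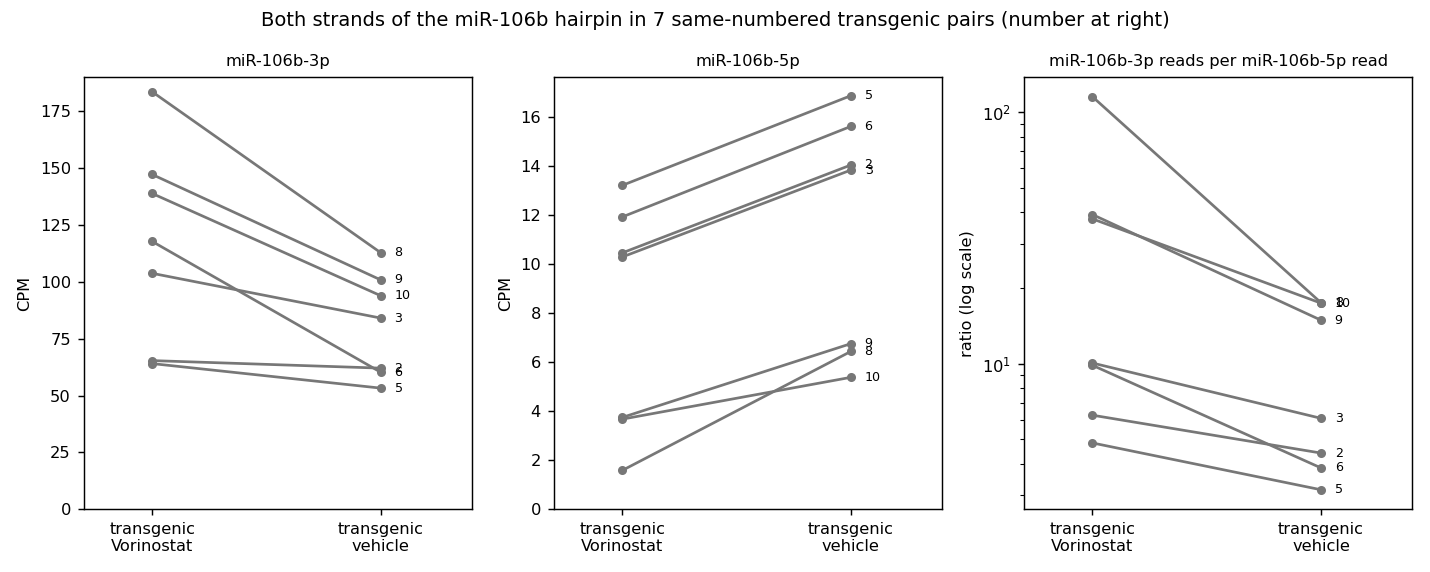
miR-106b-3p and miR-106b-5p in CPM, and their ratio of reads on a log axis, in transgenic Vorinostat (left) and transgenic vehicle (right) libraries. Lines join libraries of the same replicate number, printed at the right, and all 7 lines of each panel run in 1 direction: the 3p strand and the ratio are higher, and the 5p strand lower, with Vorinostat.

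In a fit that blocked on the number of these pairs, none of the members passed, while 0.826% of all miRNAs (5 of 605) did. That count was 0 without pair 8, 14 without pair 5 and 35 with scaling by library totals, with 0 members each time. The nearest members were miR-106b-3p (log2 difference 0.49 ± 0.14, adjusted p = 0.0642 by edgeR) and miR-106b-5p (-0.63 ± 0.20, adjusted p = 0.0788 by edgeR). miR-93-5p had -0.47 ± 0.17 and miR-20a-5p -0.67 ± 0.29, with adjusted p of 0.118 and 0.169 by edgeR. The 95% interval of miR-92a-3p, from -0.22 to 0.39, leaves room for a modest difference either way. Without the pair numbered 8, which holds 1 of the libraries that stood apart, miR-106b-3p had 0.47 and miR-106b-5p -0.48, each still in 1 direction in 6 of 6 pairs. Scaling by library totals alone moved the median of all miRNAs to -0.19 in the paired fit. Under it miR-106b-3p was higher in 6 and miR-25-3p in 5 of 7 pairs, and miR-92a-3p turned to -0.10.

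The ratio of both miR-106b strands needs no scaling between libraries, but its strands lie on opposite sides of the library-wide contrast. Their rho with miR-93-5p was -0.76 for the 3p strand and 0.90 for the 5p strand. Whether the ratio differs beyond that contrast was not tested. The ratio was 6.25, 10.1, 4.85, 9.87, 115, 39.2 and 37.7 reads of the 3p strand per read of the 5p strand in the Vorinostat libraries of these pairs. In the vehicle libraries it was 4.42, 6.07, 3.16, 3.85, 17.5, 14.9 and 17.4. It was higher with Vorinostat in 7 of 7 pairs, by 1.21 ± 0.76 on the log2 scale (SD of the pair differences). An exact paired permutation test gave p = 0.0156 (two-sided), the smallest that 7 pairs allow. Without pair 8 the difference was 0.95 ± 0.39 in 6 of 6 pairs, with an exact permutation p of 0.0312, again the smallest allowed. Over all 17 libraries, unpaired, the log2 ratio was 3.85 ± 1.51 with Vorinostat and 2.92 ± 1.08 with vehicle, a difference of 0.92 with an exact permutation p of 0.187 (adjusted 0.562 over 3 comparisons). Within lane L001 the difference was 0.63 (4 and 3 libraries, exact permutation p = 0.0857, smallest possible 0.0571), and within lane L002 it was 1.05 (6 and 4 libraries, exact permutation p = 0.286). The paired test was added after the values were seen, pairs 2, 3, 6, 8, 9 and 10 share a lane while pair 5 does not, and the labels do not say what a replicate number stands for.

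The comparison of transgenic Vorinostat with wild type vehicle asks how treated transgenic mice compare with untreated littermates. edgeR called 0 of the 9 members and 0% of all miRNAs, with 19 at an unadjusted p under 0.05, and DESeq2 and limma voom called 0, with 29 and 23. The members divided into 4 higher and 5 lower with Vorinostat, and their median log2 difference was -0.03 beside 0.01 over all miRNAs. miR-25-3p had 169, 247 and 321 CPM as lowest, median and highest value with Vorinostat, against 163, 195 and 267 CPM in wild type. It was the only member with an unadjusted p under 0.05, at a log2 difference of 0.26 ± 0.13 (unadjusted p = 0.0497, adjusted p = 0.9998, edgeR), and 9 of 10 Vorinostat libraries lay above the wild type mean. miR-93-5p had a log2 difference of 0.000102 ± 0.33 (95% interval -0.67 to 0.67). The log2 ratio of the miR-106b strands was 3.85 ± 1.51 with Vorinostat and 3.66 ± 2.12 in wild type (exact permutation p = 0.825).

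**Figure D4:**
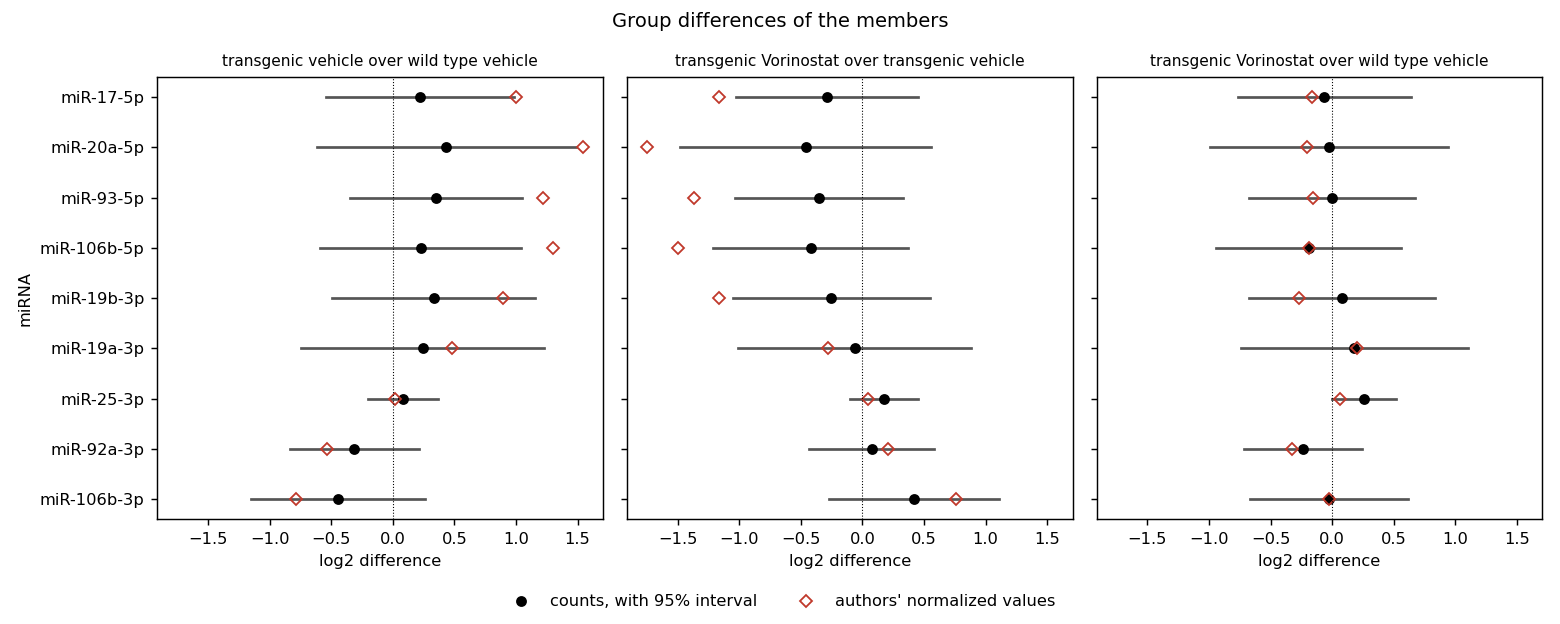
Log2 differences of the 9 tested members in 3 group comparisons, in the direction named above each panel. Black points with 95% intervals come from the edgeR fit of the counts, all of whose intervals include 0 except that of miR-25-3p in the right panel. Red diamonds come from limma on the authors' normalized values, which lie farther from 0 for the miR-17 family in the left and middle panels.

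The authors' own normalized table gave another picture of the same libraries. It holds 674 miRNAs on a log2 scale, and 9 of the members are in it. Tested with limma in the same 3 comparisons, 6 of these 9 members passed for transgenic vehicle over wild type, where 54.3% of all miRNAs did. For Vorinostat over transgenic vehicle 6 members passed, where 53.4% of all miRNAs did, and for Vorinostat over wild type 0 members and 0.89% of all miRNAs passed. Since most of the table passed in the transgene and Vorinostat comparisons, these counts do not set the members apart from other miRNAs. In transgenic vehicle, relative to wild type, miR-20a-5p rose by 1.54 ± 0.43, miR-106b-5p by 1.30 ± 0.37, miR-93-5p by 1.22 ± 0.37 and miR-17-5p by 1.003 ± 0.34 on the log2 scale (SE), and miR-106b-3p (-0.78 ± 0.21) and miR-92a-3p (-0.53 ± 0.16) were lower. With Vorinostat, relative to transgenic vehicle, miR-20a-5p (-1.75 ± 0.42), miR-106b-5p (-1.50 ± 0.36), miR-93-5p (-1.37 ± 0.37), miR-19b-3p (-1.17 ± 0.38) and miR-17-5p (-1.16 ± 0.33) fell, and miR-106b-3p rose by 0.76 ± 0.21. Adjusted p-values by limma were 0.00559 to 0.0155 for the 6 members of the transgene comparison and 0.00275 to 0.0137 for the 6 of the Vorinostat comparison. Each of these differences has the sign of the estimate from the counts and is larger.

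The tables differed in how far group means lay apart as well as in how far the libraries of a group spread. For miR-93-5p the means of Vorinostat and transgenic vehicle were 6.69 and 8.06 in the authors' values (SD 0.57 and 0.42). On log2(CPM + 0.5) these means were 5.27 and 5.70 (SD 0.72 and 0.49). In the authors' values miR-93-5p was 5.46 to 7.31 in Vorinostat, 7.48 to 8.78 in transgenic vehicle and 4.08 to 8.12 in wild type, so both transgenic groups did not overlap. miR-20a-5p showed the same, with 5.13 to 7.60 in Vorinostat and 7.70 to 9.75 in transgenic vehicle. Within transgenic vehicle its SD was 0.62 in the authors' values and 1.0003 on log2(CPM + 0.5). Of all 674 miRNAs, 13.6% had transgenic groups apart in this way. Transgenic vehicle and wild type were apart for 7.57% of them and for none of the members. On log2(CPM + 0.5) from the counts, miR-93-5p was 3.86 to 5.89 in Vorinostat and 5.04 to 6.15 in transgenic vehicle, and 0% of the tested miRNAs had these groups apart. The authors' value minus log2 CPM of miR-93-5p averaged 1.42 ± 0.64 in Vorinostat, 2.37 ± 0.50 in transgenic vehicle and 1.81 ± 0.46 in wild type, so the step from counts to the authors' values was larger in transgenic vehicle. How the values were made, and whether the group of a library entered the adjustment, is not stated in the sources. Within lane L001 alone, limma on the authors' values called 0 members and 0 of all 674 miRNAs in each comparison. Within lane L002 it called 4 members and 150 of all miRNAs for the transgene, and 6 members and 335 of all miRNAs for Vorinostat.

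**Figure D5:**
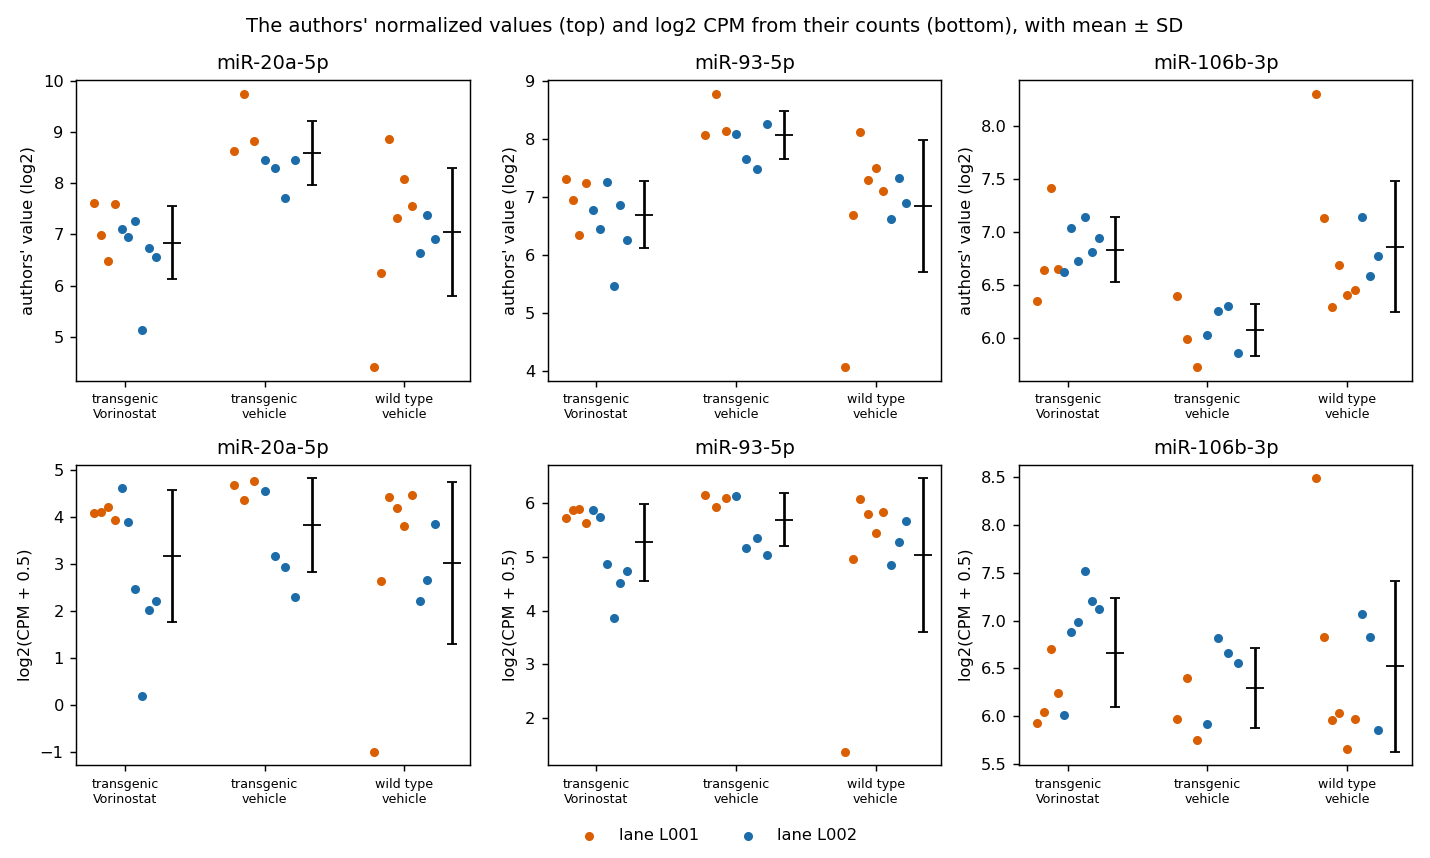
The authors' normalized values (top, log2) and log2(CPM + 0.5) from the counts (bottom) of miR-20a-5p, miR-93-5p and miR-106b-3p in every library, by group, coloured by lane, with mean ± SD in black. In the top row the transgenic groups are apart for miR-20a-5p and miR-93-5p, while in the bottom row they overlap, and most libraries of lane L002 lie low for these miRNAs and high for miR-106b-3p.

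Strands and relatives outside the members showed no called difference. Of the 8 other strands of the hairpins, 7 had reads and 3 were tested, and 0 passed in any of the 3 comparisons by edgeR. All 3 were lower with Vorinostat than with transgenic vehicle, with a median log2 difference of -0.62. The miRNAs with the miR-92 seed elsewhere in the genome, miR-92b-3p and miR-32-5p, were tested and 0 of 2 passed. Markers of other cells that are known to hold these clusters were present in every group. The 5 erythrocyte marker miRNAs, all with reads, summed to 768 ± 231 CPM in Vorinostat, 677 ± 124 CPM in transgenic vehicle and 780.2 ± 473 CPM in wild type, with miR-486a-5p and miR-486b-5p, whose counts are identical, counted once. The 4 markers of endothelium and vessel wall, all with reads, summed to 11054 ± 4752, 8897 ± 1970 and 8772 ± 2224 CPM in those groups. By mean, miR-126a-3p and miR-143-3p were higher with Vorinostat than with transgenic vehicle, and miR-126a-5p and miR-145a-5p lower. miR-143-3p reached 16060 CPM in a Vorinostat library, and its median was 3046 CPM there against 3583 CPM in transgenic vehicle. The part of erythrocytes and vessel cells in the levels of miR-92a-3p, miR-25-3p and miR-93-5p was not tested.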

How the data were processed

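Raw counts of mature miRNAs in 26 libraries are as the authors deposited them, beside a table of normalized log2 values for 674 miRNAs. A further deposited table gives a membership score of each miRNA in co-expression modules per the file headers; its p-values, also deposited, were not used. The kit was TruSeq Small RNA, sequenced on a HiSeq2000, per the labels' protocols. FastQC 0.11.5 and mm10 are named in the submitters' processing notes. The sources used here do not give the aligner, the annotation, the counting or the normalization.

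Counts were filtered with filterByExpr (minimum count 10, total 15) and tested with edgeR 4.0.16 (R 4.3.3), trimmed-mean (TMM) factors, 1 fit of 3 groups, two-sided, Benjamini-Hochberg threshold 0.05. The script was tested on simulated data. limma 3.58.1 (on the authors' values, and voom) and DESeq2 1.42.0 were alternatives. The strand ratio adds 0.5 to each count only in the unpaired test and in the search for outlying libraries. Exact permutation tests compare libraries or pairs. A floor of 3 counts and all intervals on reads cover counting error only, since PCR reads are not independent molecules.

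Members and lists were chosen with earlier results of these data known. The named miRNAs are the 10 members, their other strands, the paralogous cluster, miRNAs with the same seed, and the miRNAs most like each cluster sum. Same-numbered transgenic libraries deviated together (correlation 0.27 to 0.60 in 7 pairs, median 0.46), so the numbers were taken as pairs from the data, not from the labels. Of the pairs with wild type, 4 of 6 (transgenic vehicle) and 6 of 9 (Vorinostat) had a correlation over 0.1, with medians of 0.34 and 0.29 and lowest values of -0.45 and -0.51, so not every pair did. Libraries of different numbers were not compared in this way, so taking the numbers as pairs is an assumption.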

Additional observations from a re-analysis of the deposited data

Results flagged for a closer look

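In 33 sets of values, 1 per member or ratio and group, a library far from the nearest other one was looked for. Chance gives about 1 in 20 such sets, and 5 were found. In wild type vehicle, replicate 1 had the highest miR-92a-3p at 664 CPM, where the next library had 268 CPM. It also had the highest miR-106b-3p at 358 CPM, where the next had 134 CPM, and the highest log2 ratio of miR-106b-3p to miR-106b-5p at 8.43, where the next had 4.71. This library had the fewest counts, 585188, so a floor of 3 counts is 6.24 CPM in it. In transgenic Vorinostat, replicate 8 had the highest miR-92a-3p at 343 CPM, where the next had 246 CPM. Replicate 1 of that group had the highest miR-19a-3p at 2.77 CPM, where the next had 1.48 CPM.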

How the results depend on the processing

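Over all alternatives that fit the counts, each of the 3 group comparisons called 0 members. They also called 0 miRNAs, except in fits with a replicate block over the transgenic pairs only, for Vorinostat over transgenic vehicle. That fit called 5 miRNAs with TMM or RLE factors, 35 with library totals, 14 without pair 5 and 0 without pair 8, with 0 members each time. The replicate block over all 26 libraries changed no call. Leaving out each library in turn gave 0 members and 0 miRNAs in each comparison (lowest 0, highest 0). What changed the calls most was the deposited table used. limma on the authors' normalized values called 366, 360 and 6 miRNAs (transgenic vehicle over wild type, Vorinostat over transgenic vehicle, Vorinostat over wild type) and 6, 6 and 0 members. Alternatives of that fit were added after seeing the data. With lane as a covariate it called 364, 366 and 4 miRNAs and 8, 6 and 0 members, and without both libraries that stood apart 346, 388 and 18 miRNAs and 6, 6 and 0 members. With a replicate block it called 304, 322 and 2 miRNAs and 6, 6 and 0 members, and within lane L002 150, 335 and 3 miRNAs and 4, 6 and 0 members. The cause was not tested. Among 1026 log2 differences of members under these alternatives, not counting the added ones, 951 had the sign reported and 75 the other sign, and 12 of the 951 passed the threshold, all on the authors' values. Among these, the estimates whose sign turned were at most 0.25 in size. The largest were miR-19b-3p for Vorinostat over transgenic vehicle (-0.25) and miR-92a-3p for Vorinostat over wild type (-0.24), which turned to 0.052 without wild type replicate 1. For Vorinostat over transgenic vehicle, miR-92a-3p turned with RLE factors (-0.0093), library totals (-0.084), DESeq2 (-0.0095), the replicate block (-0.0097) and without both libraries (-0.042). miR-19a-3p turned within lane L001 (0.0496) and without both libraries (0.0275), and miR-19b-3p within lane L001 (0.15). For transgenic vehicle over wild type, miR-25-3p turned within lane L002 (-0.0035). For Vorinostat over wild type, miR-93-5p turned with RLE factors (-0.048), library totals (-0.088), no filter (-0.025), a mean of at least 10 CPM (-0.019), DESeq2 (-0.043), the authors' values (-0.15), within lane L002 (-0.23) and without both libraries (-0.063). miR-106b-3p turned with no filter (0.059), voom (0.21), the replicate block (0.15), within lane L002 (0.32) and without both libraries (0.25). miR-19b-3p turned with voom (-0.052), the authors' values (-0.27) and within lane L002 (-0.16), and miR-19a-3p with the replicate block (-0.14). miR-17-5p turned with lane as a covariate (0.075) and within lane L001 (0.14), and miR-20a-5p with lane (0.20), within L001 (0.17) and within L002 (0.12). Leaving out 1 library, the range for Vorinostat over wild type was -0.14 to 0.36 for miR-106b-3p, -0.18 to 0.093 for miR-17-5p, -0.059 to 0.35 for miR-19a-3p, -0.041 to 0.19 for miR-19b-3p, -0.20 to 0.13 for miR-20a-5p, -0.34 to 0.052 for miR-92a-3p and -0.16 to 0.11 for miR-93-5p. For Vorinostat over transgenic vehicle it was -0.30 to 0.13 for miR-19a-3p and -0.033 to 0.11 for miR-92a-3p. Within lane L001 with wild type replicate 1 left out, added after seeing the data, miR-92a-3p turned for transgenic vehicle over wild type (0.105, from -0.31), miR-19a-3p (0.0123) and miR-19b-3p (0.115) for Vorinostat over transgenic vehicle, and miR-106b-3p (0.0773), miR-17-5p (0.00751), miR-20a-5p (0.0148) and miR-92a-3p (0.115) for Vorinostat over wild type. Scaling by library totals moved the median of all miRNAs for Vorinostat over transgenic vehicle to -0.14, against -0.01 with TMM factors. Depth limits miR-18a-5p: without a filter its log2 difference was 1.29 for Vorinostat over transgenic vehicle (adjusted p = 0.683, edgeR), from 29 and 12 reads.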
